A study of Mus musculus with 15 samples.

Results

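The genes described are the adaptors and kinases that carry a signal from Toll-like receptor (TLR) 4 and its relatives into the cell: the adaptors *Myd88*, *Tirap*, *Ticam1* (encoding TRIF) and *Ticam2* (encoding TRAM), the kinases *Irak1*, *Irak2* and *Irak4*, the ubiquitin ligase *Traf6*, and the brakes *Irak3* (encoding IRAK-M) and *Tollip*. They were chosen by name, with earlier results of these data known. All 10 were among the 51763 gene identifiers counted and among the 16919 genes that had enough counts to be tested. RNA was sequenced from bone marrow-derived macrophages (BMDMs) of wild-type female C57BL/6NTac mice of 8 to 10 weeks of age, grown in M-CSF and left for 24 h with PBS as the control, with 5 µg/mL of fully reduced HMGB1 (frHMGB1), with 5 µg/mL of disulfide HMGB1 (dsHMGB1), with 1 µg/mL of LPS, or with LPS and 20 ng/mL of IFNγ together (LPS/IFNγ). HMGB1 is a nuclear protein that acts as an alarm signal outside the cell, and both forms were recombinant, prepared in different laboratories. The LPS concentration of the LPS/IFNγ samples was 1 µg/mL in their treatment field, and 100 ng/mL in their protocol text and in the study's methods. A difference between LPS/IFNγ and LPS therefore cannot be told apart from a difference in LPS dose. Each condition had 3 samples from 1 pool of macrophages, and errors and p-values cover the spread between cultures and libraries, not between mice.

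TLR4 recruits TIRAP and MyD88 at the plasma membrane, where MyD88 gathers IRAK4 with IRAK1 or IRAK2 into a complex that activates TRAF6 and, through the kinases TAK1 and IKK, NF-κB. After the receptor enters endosomes, TRAM and TRIF take over and signal through TRAF3 and TBK1 to interferon regulatory factors. IRAK-M lacks kinase activity and holds the IRAK complex back, and it is best known from endotoxin tolerance in macrophages, in which cells that have met LPS answer a later dose poorly; TOLLIP binds IRAK1 and the receptors and dampens the signal.

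The libraries held 40934540 to 80925478 counts each. PBS replicate 3 stood apart, with a Pearson correlation across genes of 0.939 and 0.934 with the other PBS libraries (log2 CPM, counts scaled to library size) against 0.987 or more in every other replicate pair, and 8 of the 10 genes (all but *Myd88* and *Tollip*) had their lowest PBS value in it; it had the largest share of counts on processed pseudogenes of all libraries (1.49%, against 0.816% and 0.805% in the other PBS libraries). For the 10 genes, values without it stand beside the calls against PBS that it changed and beside some other results. The pathway genes named below are given only with it. The macrophage markers *Adgre1*, *Csf1r*, *Itgam*, *Cd68*, *Mertk*, *Fcgr1* and *Lyz2* were all detected. Their summed level ranged from 21600 to 26000 CPM in PBS, 26800 to 27000 in frHMGB1, 18400 to 19600 in dsHMGB1, 14900 to 15500 with LPS and 13100 to 13500 with LPS/IFNγ. These sums are CPM of total counts, and *Lyz2* was their largest part. In mean normalized counts, *Lyz2* (852552 in PBS and 681088 in LPS/IFNγ) and *Csf1r* (121386 and 91017) were lower in LPS/IFNγ than in PBS. *Adgre1* (39938 and 74069), *Itgam* (7662 and 8879), *Cd68* (76181 and 79468), *Mertk* (3566 and 29154) and *Fcgr1* (5032 and 11935) were higher there. The 3 dendritic cell markers *Flt3*, *Zbtb46* and *Xcr1* summed to 1.61 to 2.77 CPM in PBS, 0.912 to 1.29 in frHMGB1, 3.09 to 4.08 in dsHMGB1, 7.69 to 8.44 with LPS and 13 to 14.2 with LPS/IFNγ, the 4 fibroblast markers to 111 to 266 in PBS and 180 to 235 elsewhere, and the 6 neutrophil markers, of which 2 (*S100a8* and *Camp*) passed the filter and 3 (*S100a9*, *Ly6g* and *Mpo*) were at 0, to 2.1 to 5.47 in PBS, 2 to 2.25 in frHMGB1, 2.19 to 4.52 in dsHMGB1, 4.24 to 4.63 with LPS and 1.97 to 2.55 with LPS/IFNγ; the part of other cells in the results was not tested. In such bulk samples, fewer cells of a type and less RNA per cell cannot be told apart. The scaling of the libraries also mattered: with edgeR's TMM scaling the median log2 fold change over PBS of all tested genes was -0.11 in dsHMGB1, -0.27 with LPS and -0.15 with LPS/IFNγ, and with total counts alone it was -0.46, -0.89 and -0.81, so directions that turn with the scaling are named where they are given.

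A gene was called when edgeR's quasi-likelihood test gave it a Benjamini-Hochberg adjusted p under 0.05; levels are DESeq2 normalized counts, and log2 fold changes with their standard errors (SE) are DESeq2's. Against PBS, none of the 10 genes was called in frHMGB1 (where 1.31% of all tested genes were called higher and 5.69% lower); 1 of them, *Irak2*, had an unadjusted edgeR p under 0.05, and DESeq2's Wald test called 0. In dsHMGB1, 5 were called higher and 0 lower (23.3% of all genes were called higher and 24.2% lower), and they were *Irak2*, *Myd88*, *Irak3*, *Traf6* and *Ticam2*; of lower genes, 1 (*Irak4*) had an unadjusted edgeR p under 0.05 and was called by DESeq2. LPS gave 6 higher and 2 lower (26.7% and 36.2% of all genes), and LPS/IFNγ gave 5 higher and 4 lower (29% and 31.2%). The median log2 fold change of the 10 genes was 0.07 in frHMGB1, 0.45 in dsHMGB1, 0.66 with LPS and 0.30 with LPS/IFNγ, beside medians of -0.01, -0.1, -0.21 and -0.13 over all tested genes. With total counts as the only scaling, dsHMGB1 gave 3 higher and 3 lower, LPS 3 higher and 4 lower, and LPS/IFNγ 2 higher and 5 lower. When each stimulation was fitted with PBS alone, in place of all 15 libraries in 1 fit, the calls of *Traf6* and *Ticam2* in dsHMGB1 (adjusted p = 0.0663 and 0.137 by edgeR), *Irak4* and *Irak1* with LPS (0.137 and 0.281) and *Irak1* and *Irak3* with LPS/IFNγ (0.0865 and 0.0976) were lost, and upper-quartile scaling lost those of *Tirap* in LPS (0.141) and of *Ticam1* and *Tollip* in LPS/IFNγ (0.193 and 0.826). The libraries of a stimulation and of PBS did not overlap for 3 of the 10 genes in frHMGB1, 6 in dsHMGB1, 8 with LPS and 8 with LPS/IFNγ, beside 20.3%, 49.9%, 62.7% and 63.2% of all tested genes. All 4 comparisons share the PBS libraries and are not independent of one another.

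**Figure D1:**
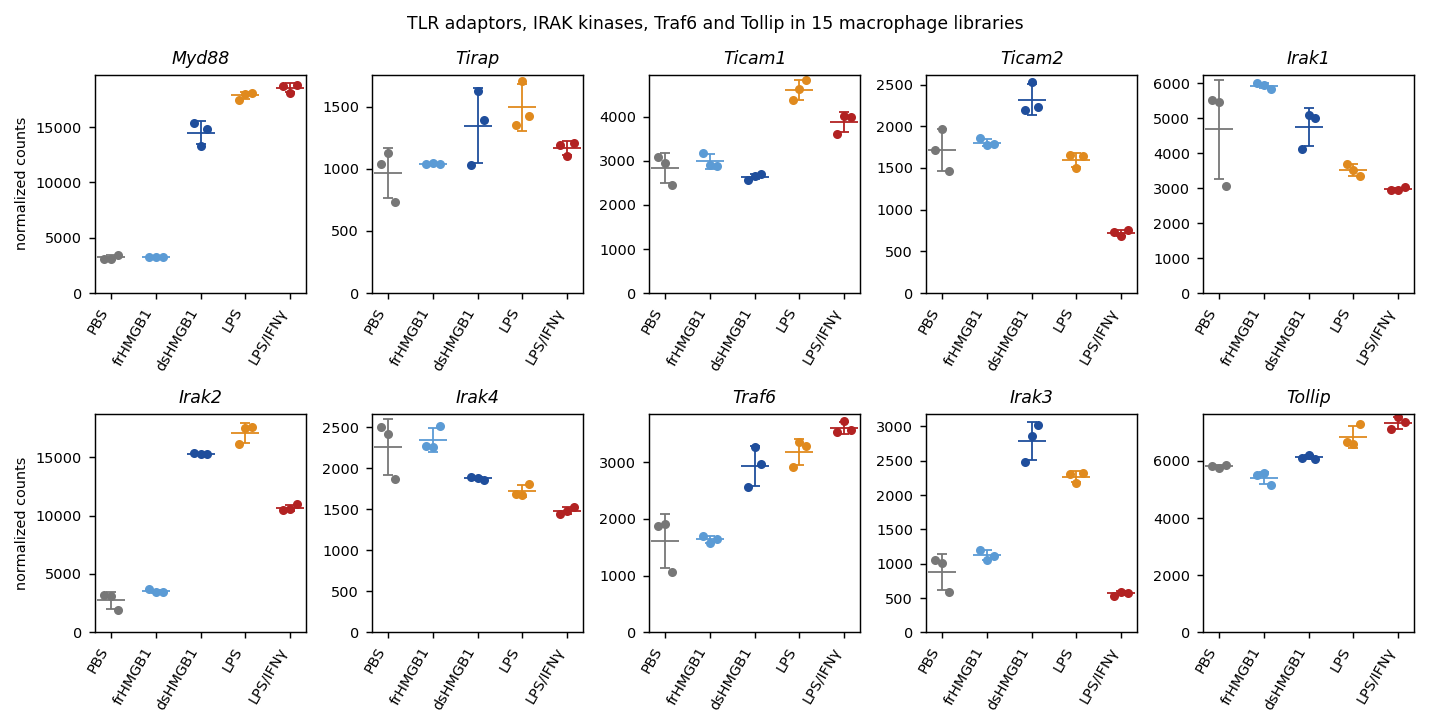
Normalized counts (DESeq2, linear axis from 0) of the 10 genes in each of the 15 libraries, grouped by condition, with a point for each library and a bar for the mean of 3. *Myd88* lay at 3065 to 3464 in PBS and 13297 to 18842 in dsHMGB1, LPS and LPS/IFNγ, while *Irak3* rose to 2181 to 3015 in dsHMGB1 and LPS and lay at 535.3 to 590.2 in LPS/IFNγ.

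**Figure D2:**
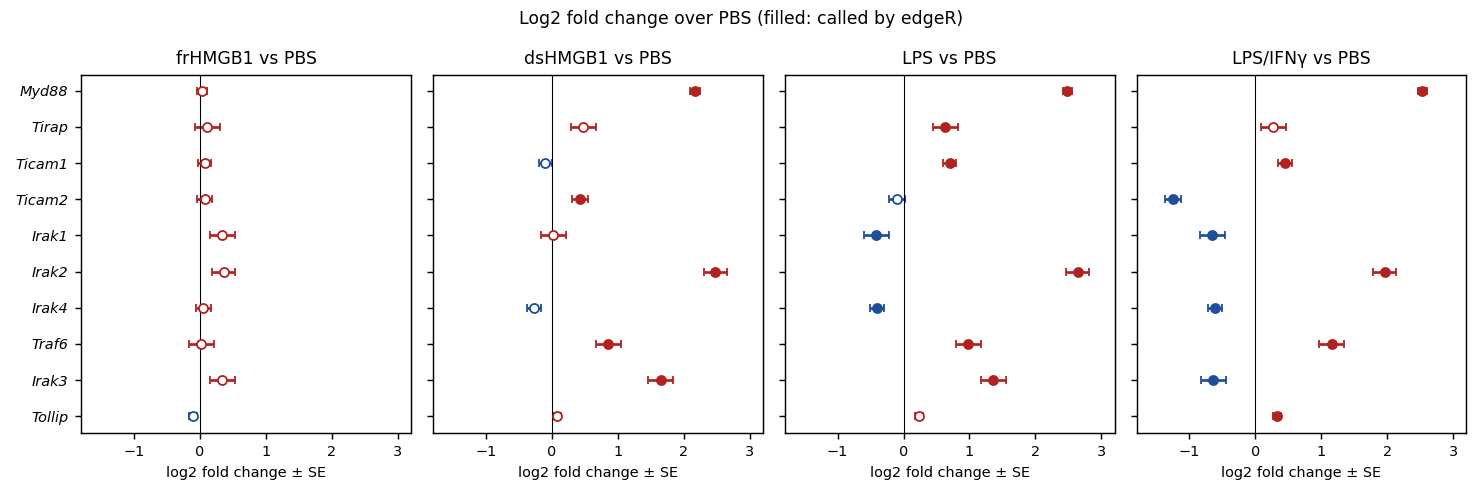
Log2 fold change of each of the 10 genes over PBS with its SE (DESeq2, 3 libraries a condition), 1 panel for each stimulation, with filled points for genes called by edgeR. None was called in frHMGB1, and *Irak2* and *Myd88* had values of 1.96 to 2.64 in the other 3 stimulations, while *Tollip*, at 0.08 to 0.33 there, turned to negative values when total counts were the only scaling.

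*Myd88*, *Irak2*, *Traf6* and *Irak3* were the only genes of the 10 that were called in dsHMGB1, LPS and LPS/IFNγ alike, and the 100 bases before their RefSeq start sites are shown because RNA of these genes moved. They come from RefSeq on GRCm38.p6, are written 5′ to 3′ on the gene's own strand, and cover chr9:119340019-119340118 on the minus strand for *Myd88*, chr6:113638367-113638466 on the plus strand for *Irak2*, chr2:101678320-101678419 on the plus strand for *Traf6*, and chr10:120201598-120201697 and chr10:120202131-120202230 on the minus strand for the first and the second start of *Irak3*. Capitals mark matches on either strand to GGG and CC with any 5 bases between them (an NF-κB form), GAAA repeated after any 2 bases (an interferon-stimulated response element, ISRE, form), TTCNNNGAA (a STAT, GAS, form) or TGANTCA (an AP-1 form).
Myd88: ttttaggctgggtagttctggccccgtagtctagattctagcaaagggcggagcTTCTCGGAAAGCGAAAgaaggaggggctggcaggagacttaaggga
Irak2: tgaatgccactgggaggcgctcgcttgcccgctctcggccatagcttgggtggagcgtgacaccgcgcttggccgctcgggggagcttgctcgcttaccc
Traf6: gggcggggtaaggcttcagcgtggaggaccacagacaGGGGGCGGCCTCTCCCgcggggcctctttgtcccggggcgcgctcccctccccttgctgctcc
Irak3, first start: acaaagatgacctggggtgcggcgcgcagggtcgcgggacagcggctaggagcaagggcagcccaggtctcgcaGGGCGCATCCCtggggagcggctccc
Irak3, second start: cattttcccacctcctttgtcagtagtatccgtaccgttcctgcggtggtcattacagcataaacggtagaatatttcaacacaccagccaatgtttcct
The *Myd88* run in capitals holds the GAS form and the ISRE form, which overlap each other, and in the whole RefSeq window (250 bases before the start to 50 after it) *Myd88* was the only one of the 9 genes with a window that held either; *Ticam2* had no window. Of 32851 RefSeq windows, 3.44% held the ISRE form and 8.3% the GAS form. The NF-κB form was in the windows of 8 of the 9 genes (all but *Myd88*), but 50.8% of all windows held it, and the AP-1 form, in 7.81% of all windows, was in none of the 9. A match is a description of letters and not a site.

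Of the adaptors, *Myd88* changed most. *Myd88* (ENSMUSG00000032508, GRCm38, chr9:119335934-119341411, minus strand) encodes the adaptor shared by nearly all TLRs and the interleukin-1 receptors. Its normalized counts were 3121, 3065 and 3464 in PBS, 3268, 3274 and 3300 in frHMGB1, 15330, 13297 and 14845 in dsHMGB1, 17468, 18029 and 18106 in LPS, and 18734, 18125 and 18842 in LPS/IFNγ. The PBS and frHMGB1 libraries overlapped, and the lowest dsHMGB1 library was far above both. Mean levels rose from 3217 ± 216 (SD, n = 3) in PBS to 14491 ± 1060 in dsHMGB1, a log2 fold change of 2.17 (SE 0.07, 4.51-fold, adjusted p = 7.32e-11 by edgeR), and to 17868 ± 348 with LPS (2.48, SE 0.07, 5.56-fold, adjusted p = 1.65e-11) and 18567 ± 387 with LPS/IFNγ (2.53, SE 0.07, 5.78-fold, adjusted p = 1.02e-11). In frHMGB1 the value was 0.03 (SE 0.08, adjusted p = 0.801), and it turned to -0.03 with upper-quartile scaling.

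*Tirap* (ENSMUSG00000032041, chr9:35184551-35200291, minus strand) encodes the adaptor that brings MyD88 to TLR4 and TLR2 at the membrane. Its counts were 1038, 1123 and 734.4 in PBS, 1035, 1049 and 1041 in frHMGB1, 1027, 1622 and 1390 in dsHMGB1, 1350, 1709 and 1422 in LPS, and 1189, 1106 and 1209 in LPS/IFNγ. Only the LPS libraries lay wholly above those of PBS, and dsHMGB1 replicate 1 lay within the PBS range. *Tirap* rose in LPS by 0.63 (SE 0.19, 1.54-fold, adjusted p = 0.0194 by edgeR) and was not called in dsHMGB1 (0.48, SE 0.19, adjusted p = 0.0574) or LPS/IFNγ (0.27, SE 0.19, adjusted p = 0.282; -0.44 with total counts as the only scaling). The LPS call was lost without LPS replicate 2 (adjusted p = 0.0609) and the direction in LPS turned to -0.09 with total counts as the only scaling, while the dsHMGB1 value was called without PBS replicate 2 (adjusted p = 0.026) or dsHMGB1 replicate 1 (adjusted p = 0.0142) and with RLE scaling, DESeq2's Wald test, no filter or protein-coding genes alone (adjusted p = 0.0299 to 0.0442). Without PBS replicate 3, edgeR's own estimates went from 0.46 to 0.29 in dsHMGB1 (adjusted p = 0.0791), from 0.56 to 0.41 with LPS (adjusted p = 0.0132) and from 0.24 to 0.04 with LPS/IFNγ (adjusted p = 0.803).

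*Ticam1* (ENSMUSG00000047123, chr17:56269319-56276786, minus strand) encodes TRIF, the adaptor of TLR3 and of endosomal TLR4. Normalized counts were 3099, 2965 and 2458 in PBS, 3177, 2915 and 2879 in frHMGB1, 2574, 2662 and 2701 in dsHMGB1, 4383, 4633 and 4836 in LPS, and 3613, 4016 and 4009 in LPS/IFNγ. Both LPS conditions lay above every other library, whereas dsHMGB1 lay within the range of PBS. The rise was 0.70 in LPS (SE 0.1, 1.62-fold, adjusted p = 0.000244 by edgeR) and 0.45 in LPS/IFNγ (SE 0.1, 1.36-fold, adjusted p = 0.00508), and with total counts as the only scaling the directions turned, to -0.01 and -0.25. In dsHMGB1 the value was -0.10 (SE 0.1, adjusted p = 0.411 by edgeR). *Ticam1* was called lower there with upper-quartile scaling (edgeR's own estimate -0.34, adjusted p = 0.00659) and total counts alone (-0.48, adjusted p = 0.0114). It was also called lower in dsHMGB1 without PBS replicate 3 (edgeR's own estimate -0.23, adjusted p = 0.00635). That omission took its estimate with LPS/IFNγ from 0.42 to 0.29 (adjusted p = 0.00104).

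*Ticam2* (ENSMUSG00000056130, chr18:46557291-46574533, minus strand) encodes TRAM, which couples TLR4 to TRIF. Its counts were 1714, 1968 and 1465 in PBS, 1859, 1773 and 1783 in frHMGB1, 2196, 2528 and 2236 in dsHMGB1, 1657, 1505 and 1639 in LPS, and 737.7, 681.8 and 750 in LPS/IFNγ. The dsHMGB1 libraries were the highest and the LPS/IFNγ libraries the lowest, and neither overlapped any other condition. *Ticam2* rose in dsHMGB1 by 0.43 (SE 0.12, 1.35-fold, adjusted p = 0.0121 by edgeR), had a value of -0.10 with LPS (SE 0.12, adjusted p = 0.25) and fell with LPS/IFNγ by 1.25 on the log2 scale (SE 0.12, adjusted p = 9.85e-07). The rise in dsHMGB1 was no longer called without dsHMGB1 replicate 2 (adjusted p = 0.0583), with upper-quartile scaling (adjusted p = 0.118) or with total counts alone (adjusted p = 0.766). Without PBS replicate 3 edgeR's own estimate for it went from 0.42 to 0.30 (adjusted p = 0.00481) and *Ticam2* was called lower in LPS (adjusted p = 0.0104). By edgeR it was also called lower in LPS with upper-quartile scaling (-0.44, adjusted p = 0.00207) and total counts alone (-0.81, adjusted p = 0.000363). *Ticam2* shares 838 exon bases on the same strand with *Tmed7*, which encodes a secretory pathway protein of the TMED family, so reads there could have been counted for either or neither gene; *Tmed7* had 4731 ± 1540 normalized counts (SD, n = 3) in PBS and 7760 ± 1350 in dsHMGB1, where it was called higher (0.71, SE 0.21, adjusted p = 0.016) as *Ticam2* was, and 8395 ± 208 in LPS/IFNγ, where it was called higher (0.83, SE 0.21, adjusted p = 0.0057) and *Ticam2* lower. The part of the shared bases in these values was not tested.

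Among the kinases, *Irak2* rose steeply while *Irak1* and *Irak4* did not. *Irak4* (ENSMUSG00000059883, chr15:94543643-94581815, plus strand) encodes the kinase that MyD88 recruits first and that phosphorylates the other IRAKs. Its normalized counts were 2508, 2415 and 1876 in PBS, 2272, 2262 and 2521 in frHMGB1, 1897, 1879 and 1859 in dsHMGB1, 1686, 1676 and 1814 in LPS, and 1445, 1482 and 1527 in LPS/IFNγ. Levels were lower in both LPS conditions than in any PBS library, and dsHMGB1 overlapped PBS only through PBS replicate 3. *Irak4* fell by 0.40 on the log2 scale in LPS (SE 0.11, adjusted p = 0.00486 by edgeR) and by 0.61 in LPS/IFNγ (SE 0.11, adjusted p = 0.000449). In dsHMGB1 the value was -0.27 (SE 0.11, adjusted p = 0.0682), called lower without PBS replicate 3 (edgeR's own estimate -0.42, adjusted p = 2.2e-05) and by DESeq2's Wald test (adjusted p = 0.0348). By edgeR it was also called lower there with upper-quartile scaling (-0.50, adjusted p = 0.000988) and total counts alone (-0.65, adjusted p = 0.00299). The 1 CPM filter (adjusted p = 0.0245) and protein-coding genes alone (adjusted p = 0.0339) gave the same call.

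*Irak1* (ENSMUSG00000031392, chrX:74013914-74023918, minus strand) encodes the kinase that IRAK4 activates and that hands the signal to TRAF6. Normalized counts were 5524, 5460 and 3048 in PBS, 5995, 5951 and 5844 in frHMGB1, 4115, 5103 and 5008 in dsHMGB1, 3687, 3504 and 3346 in LPS, and 2950, 2957 and 3017 in LPS/IFNγ. The first and second PBS libraries were above all dsHMGB1, LPS and LPS/IFNγ libraries, and PBS replicate 3 was below all of LPS, so that its group had an SD of 1410 around a mean of 4677. *Irak1* fell by 0.65 on the log2 scale in LPS/IFNγ (SE 0.19, adjusted p = 0.00712 by edgeR) and by 0.41 in LPS (SE 0.19, adjusted p = 0.0407). The LPS call was lost by leaving out PBS replicate 1 or 2 or any LPS library (adjusted p = 0.0863 to 0.17). Without PBS replicate 3, edgeR's own estimates were -0.96 with LPS/IFNγ (adjusted p = 3.24e-09), -0.70 with LPS (adjusted p = 2.45e-07) and -0.25 with dsHMGB1 (adjusted p = 0.0114), and with all libraries dsHMGB1 was at 0.02 (SE 0.19, adjusted p = 0.998), a direction that alternative settings turned either way. In frHMGB1 *Irak1* was at 0.34 (SE 0.19, adjusted p = 0.41), and edgeR's own estimate went from 0.35 to 0.11 without PBS replicate 3 (adjusted p = 0.406).

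*Irak2* (ENSMUSG00000060477, chr6:113638467-113695026, plus strand) encodes the kinase needed for the late phase of the response. Its counts were 3210, 3119 and 1882 in PBS, 3683, 3431 and 3460 in frHMGB1, 15336, 15309 and 15293 in dsHMGB1, 16106, 17511 and 17619 in LPS, and 10486, 10530 and 10968 in LPS/IFNγ. All libraries of the last 3 conditions lay above all PBS and frHMGB1 libraries, with no overlap between any pair of the 5 conditions. *Irak2* rose by 2.48 in dsHMGB1 (SE 0.17, 5.59-fold, adjusted p = 7.3e-08 by edgeR), 2.64 with LPS (SE 0.17, 6.23-fold, adjusted p = 3.02e-08) and 1.96 with LPS/IFNγ (SE 0.17, 3.89-fold, adjusted p = 4.36e-07). In frHMGB1 it was at 0.36 (SE 0.17, adjusted p = 0.293) and was not called, with or without PBS replicate 3 (edgeR's own estimate 0.37 with it and 0.15 without it).

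*Traf6* (ENSMUSG00000027164, chr2:101678429-101701669, plus strand) encodes the ubiquitin ligase at which the MyD88 and IRAK signal meets TAK1. Its normalized counts were 1875, 1901 and 1061 in PBS, 1701, 1582 and 1641 in frHMGB1, 2558, 3257 and 2959 in dsHMGB1, 2918, 3347 and 3279 in LPS, and 3529, 3716 and 3561 in LPS/IFNγ. The last 3 conditions lay above PBS and frHMGB1 without overlap. *Traf6* rose by 0.86 in dsHMGB1 (SE 0.19, 1.81-fold, adjusted p = 0.00294 by edgeR), 0.98 with LPS (SE 0.19, 1.97-fold, adjusted p = 0.00117) and 1.16 with LPS/IFNγ (SE 0.19, 2.23-fold, adjusted p = 0.000215). With total counts as the only scaling it was not called in any of them (adjusted p = 0.098, 0.335 and 0.0976), and without PBS replicate 3 edgeR's own estimates went from 0.84 to 0.60 in dsHMGB1 (adjusted p = 9.35e-06), from 0.91 to 0.69 with LPS (adjusted p = 1.18e-06) and from 1.12 to 0.86 with LPS/IFNγ (adjusted p = 6.53e-08).

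The brake *Irak3* moved in opposite directions under dsHMGB1 or LPS and under LPS/IFNγ. *Irak3* (ENSMUSG00000020227, chr10:120141648-120202130, minus strand) had normalized counts of 1059, 1012 and 583.1 in PBS, 1195, 1052 and 1119 in frHMGB1, 2484, 2856 and 3015 in dsHMGB1, 2300, 2181 and 2326 in LPS, and 535.3, 590.2 and 580.1 in LPS/IFNγ. The dsHMGB1 libraries were the highest of all, LPS came next without overlap, and LPS/IFNγ was below the first and second PBS libraries and at the level of PBS replicate 3. *Irak3* rose by 1.65 in dsHMGB1 (SE 0.19, 3.14-fold, adjusted p = 1.22e-05 by edgeR) and by 1.36 in LPS (SE 0.19, 2.56-fold, adjusted p = 6.37e-05), and fell by 0.64 on the log2 scale in LPS/IFNγ (SE 0.19, adjusted p = 0.00793). Without PBS replicate 3, edgeR's own estimates were 1.39 in dsHMGB1 (adjusted p = 1.07e-10) and -0.93 with LPS/IFNγ (adjusted p = 1.82e-08). In frHMGB1 the value was 0.34 (SE 0.19, adjusted p = 0.409), and edgeR's own estimate went from 0.35 to 0.11 without PBS replicate 3 (adjusted p = 0.423).

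*Tollip* (ENSMUSG00000025139, chr7:141874813-141918507, minus strand), the other brake, was the steadiest of the 10 genes, with a highest condition mean 1.36 times the lowest. Its counts were 5835, 5752 and 5847 in PBS, 5489, 5566 and 5164 in frHMGB1, 6095, 6202 and 6073 in dsHMGB1, 6648, 6575 and 7276 in LPS, and 7123, 7519 and 7346 in LPS/IFNγ. The frHMGB1 libraries lay just below PBS and those of the other 3 stimulations above it, without overlap; with total counts as the only scaling those 3 turned to values below PBS. *Tollip* was called only in LPS/IFNγ, at 0.33 (SE 0.06, 1.26-fold, adjusted p = 0.00326 by edgeR), and with total counts as the only scaling it was called in the opposite direction there (-0.35, adjusted p = 0.00618), with LPS (-0.46, adjusted p = 0.000874) and with dsHMGB1 (-0.28, adjusted p = 0.0245). In LPS it was at 0.23 (SE 0.06, adjusted p = 0.0656 by edgeR), and edgeR called it higher without LPS replicate 2 (adjusted p = 0.0347) or PBS replicate 3 (adjusted p = 0.013). It was also called higher there with RLE scaling (adjusted p = 0.013 by edgeR) and by DESeq2's Wald test (adjusted p = 0.000273). Upper-quartile scaling turned it to -0.11 (adjusted p = 0.188 by edgeR).

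Ratios between genes of the same library do not depend on how libraries are scaled. Per kilobase of exon, *Irak1* made up 42.7% ± 2.1 (SD, n = 3) of the summed counts of the 4 IRAK genes in PBS and *Irak2* 26.9% ± 0.27. In dsHMGB1 the order was turned round, with 17.9% ± 1.5 for *Irak1* and 61.9% ± 2.1 for *Irak2*, and LPS and LPS/IFNγ gave 69.4% ± 1.5 and 69.1% ± 0.26 for *Irak2*. *Irak4* went from 20.1% ± 2.8 in PBS to 6.68% ± 0.28 in dsHMGB1, 6.16% ± 0.22 with LPS and 8.45% ± 0.07 with LPS/IFNγ. The share of *Irak3* was 10.4% ± 0.43 in PBS, 10.8% ± 0.48 in frHMGB1, 13.5% ± 0.92 in dsHMGB1, 11.1% ± 0.54 with LPS and 4.42% ± 0.2 with LPS/IFNγ. In frHMGB1 the shares of *Irak1* and *Irak2* were 44.4% ± 0.89 and 28.2% ± 0.65, near those of PBS.

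**Figure D3:**
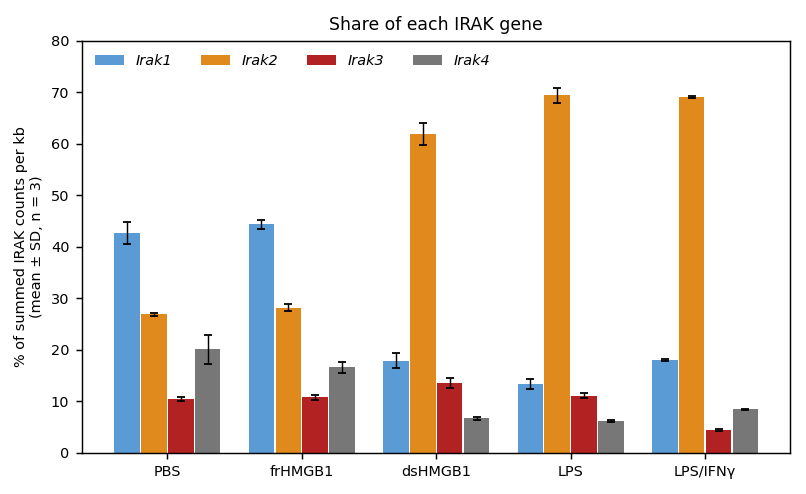
Share of each IRAK gene in the summed counts per kilobase of *Irak1*, *Irak2*, *Irak3* and *Irak4*, in percent, as bars for the mean of 3 libraries with the SD, for each of the 5 conditions. *Irak1* led in PBS and frHMGB1 (42.7% and 44.4%) and *Irak2* in dsHMGB1, LPS and LPS/IFNγ (61.9%, 69.4% and 69.1%), and *Irak3* had its smallest share, 4.42%, in LPS/IFNγ.

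Set against the kinases it restrains, *Irak3* gained on *Irak1* and *Irak4* in dsHMGB1 and LPS but lost to *Irak2*. The per-kilobase ratio of *Irak3* to *Irak1* was 0.243 ± 0.0045 (SD, n = 3) in PBS, 0.243 ± 0.015 in frHMGB1, 0.755 ± 0.032 in dsHMGB1, 0.83 ± 0.053 with LPS and 0.245 ± 0.012 with LPS/IFNγ. PBS replicate 3 did not stand apart on this ratio, which ranged from 0.238 to 0.246 in PBS, and the PBS, frHMGB1 and LPS/IFNγ ranges overlapped. The ratio of *Irak3* to *Irak4* was 0.524 ± 0.087 in PBS, 0.653 ± 0.058 in frHMGB1, where the libraries lay above those of PBS (0.606 to 0.718 against 0.425 to 0.576), 2.03 ± 0.22 in dsHMGB1, 1.8 ± 0.059 with LPS and 0.523 ± 0.019 with LPS/IFNγ. Against *Irak2* the ratio was 0.386 in PBS, 0.382 in frHMGB1, 0.218 in dsHMGB1, 0.16 with LPS and 0.064 with LPS/IFNγ. *Tollip*, the most even gene, went from a ratio to *Myd88* of 0.922 ± 0.055 in PBS to 0.216 in dsHMGB1, 0.195 with LPS and 0.201 with LPS/IFNγ. With 3 libraries against 3, an exact permutation test of a single ratio cannot fall below 0.10, so the ratios are given as descriptions.

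The HMGB1 forms were also compared directly, in the fit of all 15 libraries, to whose estimate of the spread PBS contributes. In dsHMGB1 against frHMGB1, 5 of the 10 genes were called higher and 1 lower (27.7% and 23.1% of all genes), and the libraries of 9 did not overlap (70.5% of all genes). The libraries of *Myd88*, *Irak2*, *Irak3* and *Traf6* were wholly higher in dsHMGB1, with log2 fold changes of 2.14 (SE 0.07, adjusted p = 1.04e-10 by edgeR), 2.12 (SE 0.17, adjusted p = 3.42e-07), 1.31 (SE 0.19, adjusted p = 9.25e-05) and 0.83 (SE 0.19, adjusted p = 0.00345). Of these, *Traf6* was not called with total counts as the only scaling (edgeR's own estimate 0.43, adjusted p = 0.119). *Ticam2* was higher by 0.36 (SE 0.12, adjusted p = 0.0348), at -0.04 with total counts as the only scaling, and *Irak4* fell by 0.32 on the log2 scale (SE 0.11, adjusted p = 0.0278). Both of these calls were lost when a library was left out: that of *Irak4* without any of the 6 (adjusted p = 0.051 to 0.109) and that of *Ticam2* without any except dsHMGB1 replicate 1 (adjusted p = 0.0567 to 0.135). *Tirap* was called higher without dsHMGB1 replicate 1 (adjusted p = 0.0395), and when these 2 conditions were fitted alone *Irak1* (adjusted p = 0.00563) and *Ticam1* (adjusted p = 0.0271) were called lower too.

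Against LPS, the genes called in dsHMGB1 in the fit of all 15 libraries with TMM scaling were *Ticam2*, *Ticam1* and *Myd88*. Of the 10 genes 1 was called higher and 2 lower (15.8% and 10.6% of all genes), and the libraries of 8 did not overlap (52.9%). *Ticam2* was higher in dsHMGB1 by 0.54 (SE 0.12, adjusted p = 0.00298 by edgeR) and *Ticam1* lower, at -0.80 (SE 0.1, adjusted p = 0.000252), so the 2 adaptors of the endosomal arm differed in opposite directions, without overlap of the libraries. *Myd88* was lower, at -0.30 (SE 0.07, adjusted p = 0.0243), a call lost without dsHMGB1 replicate 2 (adjusted p = 0.113) or 3 (adjusted p = 0.0543), and its direction turned to 0.03 with total counts as the only scaling. *Irak3* was at 0.30 (SE 0.19, adjusted p = 0.211) and *Irak2* at -0.16 (SE 0.17, adjusted p = 0.715), the latter turning to 0.18 with total counts alone. *Irak1* was at 0.43 (SE 0.19, adjusted p = 0.0824 by edgeR). EdgeR called it higher with upper-quartile scaling (adjusted p = 0.0263), total counts (0.0198), protein-coding genes (0.0495) or the 2 conditions alone (0.00169). Total counts alone also called *Irak3* (adjusted p = 0.0449) and *Irak4* (0.0364) higher, and the 2 conditions alone called *Irak3* (0.00819).

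**Figure D4:**
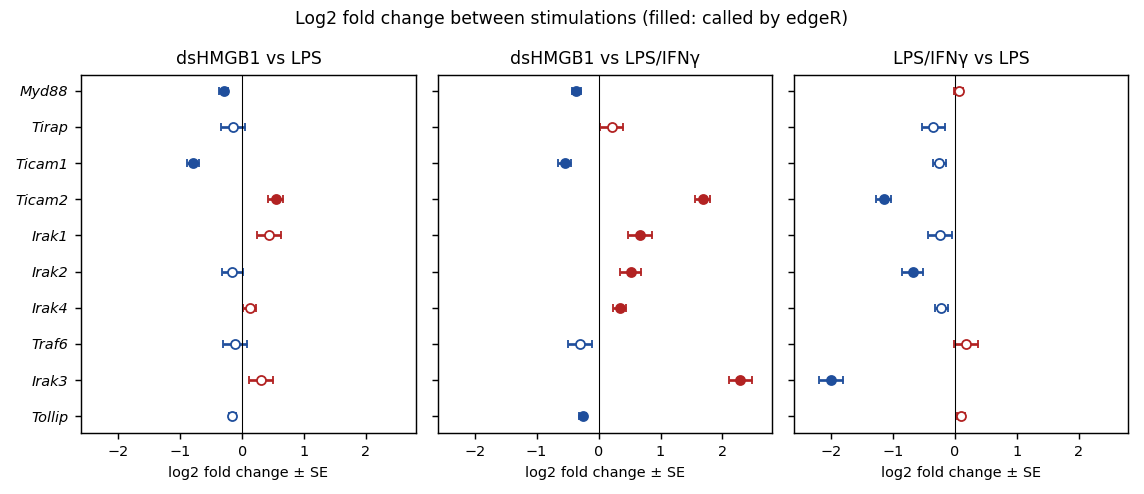
Log2 fold change with its SE (DESeq2, 3 libraries a condition) of the 10 genes between stimulations, with filled points for genes called by edgeR. *Irak3* was at 2.29 and *Ticam2* at 1.68 in dsHMGB1 against LPS/IFNγ, and at -2.0 and -1.15 in LPS/IFNγ against LPS.

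Between dsHMGB1 and LPS/IFNγ, 5 genes were called higher in dsHMGB1 and 3 lower (16.5% and 16.7% of all genes), and the libraries of 9 did not overlap (59%). *Irak3* was higher by 2.29 (SE 0.19, 4.9-fold, adjusted p = 1.15e-06 by edgeR) and *Ticam2* by 1.68 (SE 0.12, 3.21-fold, adjusted p = 2.76e-07), and both stayed called under each of the 15 alternatives tried. *Irak1* (0.67, SE 0.19, adjusted p = 0.0135), *Irak2* (0.52, SE 0.17, adjusted p = 0.0243) and *Irak4* (0.34, SE 0.11, adjusted p = 0.0373) were also higher. *Myd88* (-0.36, SE 0.07, adjusted p = 0.00291), *Ticam1* (-0.55, SE 0.1, adjusted p = 0.00207) and *Tollip* (-0.26, SE 0.06, adjusted p = 0.0259) were lower, *Tollip* turning to 0.06 with total counts as the only scaling. With that scaling *Myd88* (edgeR's own estimate -0.03, adjusted p = 0.785) and *Ticam1* (-0.23, adjusted p = 0.229) were not called either. The calls of *Irak4* and *Tollip* were lost without any 1 of the 6 libraries (adjusted p = 0.0645 to 0.0933 and 0.0555 to 0.133), that of *Irak2* without any except dsHMGB1 replicate 1 (adjusted p = 0.0508 to 0.0632) and that of *Irak1* without dsHMGB1 replicate 2 (adjusted p = 0.0514).

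LPS/IFNγ against LPS gave 0 genes higher and 3 lower (16.3% and 9.36% of all genes), and the libraries of 9 did not overlap (60.5%). *Irak3* was 3.99-fold lower in LPS/IFNγ (log2 fold change -2.0, SE 0.19, adjusted p = 8.69e-06 by edgeR), *Ticam2* 2.21-fold lower (-1.15, SE 0.12, adjusted p = 2.25e-05) and *Irak2* 1.6-fold lower (-0.68, SE 0.17, adjusted p = 0.0122). The values of *Irak3* and *Ticam2* lay between -2.04 and -1.92 and between -1.21 and -1.07 under the 15 alternatives, all called. *Myd88* was at 0.06, *Traf6* at 0.18 and *Tollip* at 0.10, and none of these was called; 0 genes were higher at an unadjusted edgeR p under 0.05 or by DESeq2.

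Ranked by their highest over their lowest condition mean, the genes ran from *Irak2* (6.24), *Myd88* (5.77), *Irak3* (4.9) and *Ticam2* (3.21) through *Traf6* (2.23), *Irak1* (1.99), *Ticam1* (1.75), *Irak4* (1.58) and *Tirap* (1.55) to *Tollip* (1.36). Per kilobase of exon, *Myd88* had the highest mean level of the 10 in PBS, at 1250 normalized counts per kilobase, next to *Tollip* at 1150, and it reached 5630 in dsHMGB1, 6940 with LPS and 7210 with LPS/IFNγ. *Irak1*, with a PBS mean of 992, ranged there from 646 in replicate 3 to 1170, against 1140 to 1160 for *Tollip*. The order of the conditions differed between genes. *Irak3* ran from dsHMGB1 through LPS, frHMGB1 and PBS down to LPS/IFNγ, with the libraries of the last 3 overlapping between neighbours, and *Myd88* from LPS/IFNγ through LPS and dsHMGB1 down to frHMGB1 and PBS, where only the last pair overlapped. *Irak1* and *Irak4* both ran from frHMGB1 at the top to LPS/IFNγ at the bottom. For *Irak4* the frHMGB1 and PBS libraries overlapped, and edgeR's own estimate in frHMGB1 went from 0.06 to -0.07 without PBS replicate 3.

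For the 4 genes called in dsHMGB1, LPS and LPS/IFNγ alike, the protein-coding genes with the most similar pattern were sought by the root mean square difference of the centred condition means (log2 CPM) over the 5 conditions, among 13024 genes. Nearest to *Myd88* were *Ifrd1* (0.075), *Aars* (0.081) and *Cxcl16* (0.084), nearest to *Irak2* were *Klf3* (0.084), *Icam5* (0.085) and *Nfxl1* (0.091), and nearest to *Traf6* were *Lrp10* (0.04) and *Senp6* (0.042). *Irak3* had 1 near neighbour, *Tmem229b* (0.097), which differed from PBS by 1.42 in dsHMGB1, 1.29 with LPS and -0.72 with LPS/IFNγ on the log2 scale; the next, *Fyb* and *Plxna2*, were at 0.19 each. These are descriptions over 5 points that share their libraries.

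The rest of the TLR4 pathway was described by 39 further genes in 4 lists, all of which were tested. The lists were chosen with earlier results of these data known, so their counts beside the shares of all genes are descriptions and not a test. In dsHMGB1, 23 were called higher than in PBS and 3 lower (23.3% and 24.2% of all tested genes), with a median log2 fold change of 0.86. LPS gave 23 higher and 4 lower (26.7% and 36.2% of all genes; median 1.2), LPS/IFNγ 27 higher and 7 lower (29% and 31.2%; 1.19) and frHMGB1 4 higher and 0 lower (1.31% and 5.69%; 0.12). Of the 4 genes of the receptor complex, 2 rose in dsHMGB1: *Cd14*, the co-receptor that passes LPS on, by 2.72 (SE 0.2, adjusted p = 2.15e-08 by edgeR), and *Ly96*, encoding the MD-2 subunit that binds LPS, by 0.72 (SE 0.15, adjusted p = 0.000553). *Cd14* had 11214 ± 4050 normalized counts (SD, n = 3) in PBS, 73762 ± 7390 in dsHMGB1, 96134 ± 3420 with LPS and 28212 ± 1490 with LPS/IFNγ, so like *Irak3* and *Ticam2* it was lower in LPS/IFNγ than in LPS (log2 fold change -1.77, SE 0.2, adjusted p = 5.8e-06).

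**Figure D5:**
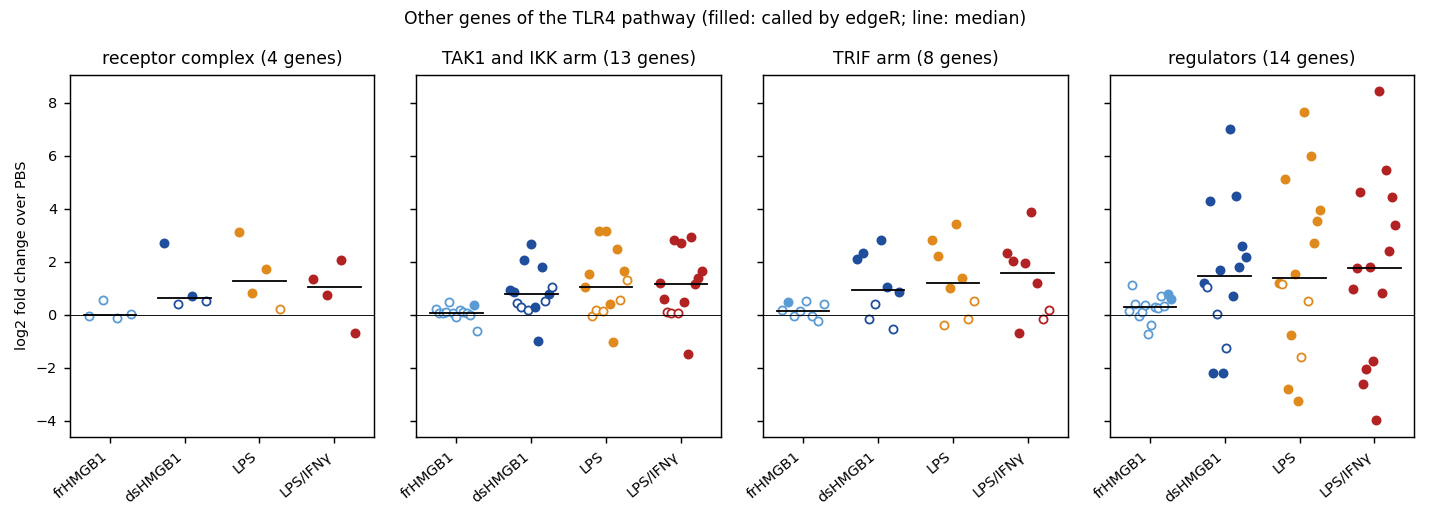
Log2 fold change over PBS (DESeq2) of 39 other TLR4 pathway genes in the 4 stimulations, 1 panel for each list, with a point for each gene (filled where called by edgeR) and a line for the list median. In dsHMGB1, 2 of 4, 7 of 13, 5 of 8 and 9 of 14 genes of the lists were called higher.

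Downstream of TRAF6, 7 of the 13 genes of the TAK1 and IKK arm rose in dsHMGB1 and 1 fell. The shares of all tested genes were 23.3% and 24.2%, for this list and for those that follow. *Rnf31*, encoding the catalytic subunit of the linear ubiquitin ligase complex, rose by 2.66 (SE 0.13, adjusted p = 3.71e-10 by edgeR), *Map3k8*, a kinase that drives ERK, by 2.06 (SE 0.24, adjusted p = 1.44e-05), and *Tab1*, a partner of TAK1, fell by 1.00 on the log2 scale (SE 0.13, adjusted p = 1.19e-05). In the TRIF arm, 5 of 8 rose and 0 fell (1, *Tradd*, was lower at an unadjusted edgeR p under 0.05). *Tank* rose by 2.83 (SE 0.23, adjusted p = 6.02e-07) and *Ikbke*, encoding a kinase close to TBK1, by 2.31 (SE 0.12, adjusted p = 4.32e-10), and the smallest called rise was that of *Traf3* (0.85, SE 0.23, adjusted p = 0.00957). Among 14 inhibitors and other regulators, 9 rose and 2 fell. *Socs1*, a brake on cytokine signalling, had 59.33 ± 14.4 normalized counts (SD, n = 3) in PBS and 7693 ± 1440 in dsHMGB1 (7.01, SE 0.22, adjusted p = 1.03e-10), and *Tnfaip3*, encoding the deubiquitinase A20, rose from 1654 ± 631 to 36692 ± 2210 (4.47, SE 0.23, adjusted p = 9.56e-09). The pellino *Peli2*, of a family of ubiquitin ligases that act on IRAK1, fell by 2.21 on the log2 scale (SE 0.19, adjusted p = 5.16e-07).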

How the data were processed

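RNA was sequenced from 15 BMDM samples, 3 for each of 5 conditions, which were grouped by their treatment labels. According to the study's methods, the authors prepared stranded libraries, mapped reads with STAR to GRCm38 and used DESeq2 for the comparisons. They described the samples as technical replicates, set p-values aside for that reason and took genes past a log2 fold change of 2 in either direction. Against PBS, *Myd88* and *Irak2* were past that cut-off in dsHMGB1 and LPS, and only *Myd88* in LPS/IFNγ. The authors deposited whole-number read counts per gene, not normalized. How reads were counted (program, annotation, strand setting) is not stated in the sources used here, so reads in the 28 to 446 exon bases that *Myd88*, *Tirap*, *Irak4*, *Irak3* and *Irak2* share with genes on the opposite strand may be counted for either. The table held 51763 identifiers (51661 in GENCODE M21), and 0 columns lacked a sample. No pair of replicates was near enough to be copies of 1 library (chi-square per degree of freedom 4.31 to 763).

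Genes passing filterByExpr (minimum count 10, total 15) were tested with edgeR 4.0.16 (quasi-likelihood F test, TMM, all 15 libraries, no covariates; called at an adjusted p under 0.05), in R 4.3.3, and DESeq2 1.42.0 gave normalized counts, unshrunken log2 fold changes and SEs. The scripts were tested on simulated data. Raw counts of the 10 genes were 497 to 20869 per library. The 10 genes and the lists were chosen with earlier results of these data known. All 10 genes were named, and of each pathway list the 2 called genes with the largest and the 1 with the smallest log2 fold change in dsHMGB1 against PBS; *Tmed7* was added because of its overlap with *Ticam2*. Alternatives were RLE, upper-quartile and total-count scaling, DESeq2's Wald test, no filter, a filter of 1 CPM in 3 libraries, protein-coding genes alone, each pair of conditions alone, the replicate number as a block, and omission of each library in turn. RefSeq promoter windows (GRCm38.p6) were matched by symbol. A macrophage marker and 1 gene with a pattern near that of *Traf6* are not reported here.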

Additional observations from a re-analysis of the deposited data

How the results depend on the processing

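Samples of a condition came from 1 pool, so no result speaks for the spread between mice, and depth was not limiting, since every gene of the 10 had at least 497 counts in each library. The rises of *Myd88*, *Irak2* and *Irak3* in dsHMGB1 and LPS, and the lower *Irak3* and *Ticam2* of LPS/IFNγ against LPS, were called under each of the 15 alternatives run for those comparisons. Except where stated, the cause of a change was not tested.

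With total counts as the only scaling, log2 fold changes turned for *Tollip* in dsHMGB1 (-0.28), LPS (-0.46) and LPS/IFNγ (-0.35), *Ticam1* in LPS (-0.01) and LPS/IFNγ (-0.25) and *Tirap* in LPS (-0.09) and LPS/IFNγ (-0.44), all against PBS. They also turned for *Ticam2* (-0.04), *Tirap* (-0.03) and *Tollip* (-0.22) in dsHMGB1 against frHMGB1, for *Irak2* (0.18), *Myd88* (0.03), *Tirap* (0.19), *Tollip* (0.18) and *Traf6* (0.21) in dsHMGB1 against LPS, and for *Tollip* (0.06) and *Traf6* (0.02) in dsHMGB1 against LPS/IFNγ. Upper-quartile scaling turned *Tollip* in dsHMGB1 (-0.16) and LPS (-0.11), *Tirap* in LPS/IFNγ (-0.04), and *Myd88* (-0.03) and *Traf6* (-0.03) in frHMGB1. Near zero in frHMGB1, *Irak4*, *Myd88* and *Traf6* went to 0, -0.02 and -0.04 with no filter and to -0.01, -0.03 and -0.04 with protein-coding genes alone, and *Traf6* to -0.01 with the 1 CPM filter. Leaving out each library in turn gave -0.07 to 0.16 for *Irak4*, -0.03 to 0.17 for *Ticam1*, -0.03 to 0.22 for *Ticam2*, -0.06 to 0.26 for *Tirap* and -0.21 to 0.18 for *Traf6* there, the lowest each time without PBS replicate 3. *Irak1* in dsHMGB1 against PBS, at 0 by edgeR, came out at 0.02 with RLE scaling and with DESeq2, 0.07 with no filter, 0 with only the 2 conditions, and -0.25 (without PBS replicate 3) to 0.15 (without PBS replicate 1) when each library was left out. *Tirap* in dsHMGB1 against LPS ranged from -0.25 to 0.04 in the same way, the highest without dsHMGB1 replicate 1.

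Counts of the 10 genes moved as follows. In dsHMGB1 against PBS, the 5 higher became 3 with total counts and 3 with only the 2 conditions, and the 0 lower became 2 with upper-quartile scaling, 3 with total counts, 1 with DESeq2, 1 with the 1 CPM filter and 1 with protein-coding genes. In LPS, the 6 higher became 3 with total counts, and the 2 lower became 4 with total counts, 1 with RLE scaling, DESeq2 or no filter, and 0 with only the 2 conditions. In LPS/IFNγ, the 5 higher became 3 with upper-quartile scaling and 2 with total counts, and the 4 lower became 2 with only the 2 conditions. Between dsHMGB1 and frHMGB1, the 5 higher became 3 with total counts, and the 1 lower became 3 with upper-quartile scaling, total counts or only the 2 conditions and 0 with no filter. Between dsHMGB1 and LPS, the 1 higher became 2 with upper-quartile scaling, 4 with total counts, 2 with protein-coding genes and 3 with only the 2 conditions, and the 2 lower became 1 with upper-quartile scaling, total counts, no filter or protein-coding genes. The 3 lower in dsHMGB1 against LPS/IFNγ became 0 with total counts, and for LPS/IFNγ against LPS only the 2 conditions gave 1 higher and 7 lower in place of 0 and 3.

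Of the 39 pathway genes, those higher in frHMGB1 (4) became 7 with DESeq2, 1 with protein-coding genes and 0 with only the 2 conditions. Those lower than PBS became 6 with total counts in dsHMGB1 (3), 7 with upper-quartile scaling and 11 with total counts in LPS (4), and 12 with total counts and 3 with only the 2 conditions in LPS/IFNγ (7). Those lower in dsHMGB1 than in frHMGB1 (2) became 8 with total counts. In dsHMGB1 against LPS, the 3 higher became 7 with total counts and 6 with only the 2 conditions, and the 14 lower became 8 with total counts. In dsHMGB1 against LPS/IFNγ, the 9 higher became 14 with total counts and 5 with no filter, and the 11 lower became 7 with total counts. With only the 2 conditions, LPS/IFNγ against LPS gave 11 higher and 19 lower in place of 4 and 8.

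Over all genes, the 1185 called in frHMGB1 became 716 with the 1 CPM filter, 70 with protein-coding genes and 189 with only the 2 conditions. Only the 2 conditions gave 4747 in place of 8028 for dsHMGB1 against PBS, 6985 in place of 4461 for dsHMGB1 against LPS, 8580 in place of 5621 for dsHMGB1 against LPS/IFNγ and 8999 in place of 4348 for LPS/IFNγ against LPS.

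Leaving out each library in turn gave 839 to 3035 genes called in frHMGB1, the highest without PBS replicate 3, with 3 to 12 pathway genes higher and 0 to 2 lower. Of the 10 genes it gave 0 to 3 lower in dsHMGB1 (3 without PBS replicate 3), 1 to 3 lower in LPS, 0 lower in dsHMGB1 against frHMGB1 in each case, 1 to 2 lower in dsHMGB1 against LPS and 2 to 4 higher in dsHMGB1 against LPS/IFNγ. Pathway genes lower in dsHMGB1 were 2 to 5 (5 without PBS replicate 1), those higher in dsHMGB1 than in LPS 1 to 3, and those higher than in LPS/IFNγ 5 to 7.

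The replicate numbers did not pair the samples: of 24 correlations between same-numbered deviations, which ran from -0.386 to 0.375, 1 was over 0.1, and in 1 of 8 comparisons every library correlated best with its own number. With a replicate block, *Irak1* in LPS was not called (-0.47, adjusted p = 0.0566 by edgeR), which left 1 gene lower there, nor was *Irak4* in dsHMGB1 against LPS/IFNγ (0.36, adjusted p = 0.0615), and *Irak1* in dsHMGB1 was at 0.02; the block changed no other call of the 10 genes.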
